A study of Mus musculus with 6 samples.

Results

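The 10 genes described here encode class 3 semaphorins (Sema3a, Sema3c, Sema3d, Sema3e), the neuropilins Nrp1 and Nrp2, the plexins Plxna2 and Plxna4, the growth factor Gdnf and its receptor Gfra1. They were taken by symbol from the gene lists of the count matrices, 10 of 32285 mouse genes, and all 10 were found in each of the 3 libraries. They had been picked with their levels in these libraries known, in the contrast of precursor-like tumor nuclei with host glia and neurons, so the levels and ratios in that contrast are a description and carry no test. In each library, RNA and open chromatin (ATAC-seq) were read from the same nuclei by 10x Multiome sequencing. All came from brains of C57BL/6J mice electroporated in utero, with plasmids delivered into the ganglionic eminences of the embryo. Foxr2 p53LOF replicate 1 carried Foxr2 overexpression and a CRISPR p53 loss of function. Foxr2 alone replicate 1 and replicate 2 carried Foxr2 overexpression without it. Foxr2 was driven by the ubiquitous CAG promoter from an integrating piggyBac vector, tagged with V5 and followed by GFP, and was delivered with an Akaluc and GFP reporter vector. Every group thus carries Foxr2 and no library without it was analysed here. The mice were taken when neurologic symptoms appeared, and their age is not given in the sources used here. Lesions with Foxr2 alone are called nonproliferative in the study.

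Class 3 semaphorins are secreted proteins that steer growing axons and migrating neurons, often by repulsion. Most of them bind a neuropilin, a co-receptor with a short cytoplasmic tail, and a plexin of the A type then passes the signal into the cell. Sema3e is the known exception, as it binds Plxnd1 directly. Neuropilins also bind VEGF, the growth factor of blood vessels. Gdnf, a survival factor for dopaminergic and enteric neurons, binds Gfra1 at the membrane, and the complex signals through the kinase Ret or through Ncam1. In the forebrain, semaphorins repel interneurons on their way out of the ganglionic eminences, and oligodendrocyte precursor cells (OPCs) respond to them when they migrate.

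Counts were available for Foxr2 p53LOF replicate 1, with 8359 nuclei kept at a median of 5527 unique molecular identifiers (UMIs), and for Foxr2 alone replicate 1, with 8316 nuclei kept at a median of 3637 UMIs. The counts of Foxr2 alone replicate 2 were not analysed here, and only its gene list, peak list and barcodes were used. Between the pair of libraries with counts, 140 cell barcodes were shared, of 10379 in Foxr2 p53LOF and 10096 in Foxr2 alone. Trp53, the gene of p53, was read at 33.6 CPM (UMIs scaled to a total of 1000000) with the p53 loss of function and at 12.9 without it. Reads of this assay come mostly from the 3′ end of transcripts, so an edited transcript can still be counted and the loss of function is not checked by it. Cas9 and the p53 guide had 0 UMIs in both libraries, and GFP stood at 324 and 29.0 CPM. The overexpressed gene, Foxr2, had a level of 42.6 CPM [40.9, 44.3] with the p53 loss of function against 3.61 [3.04, 4.25] without it. The peak list of Foxr2 alone replicate 1 holds no peak on the reporter vector, so all its clusters had 0 nuclei with vector ATAC counts.

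Nuclei were clustered without the 10 genes and named from marker genes. In Foxr2 p53LOF, 1274 nuclei of cluster 5 were called precursor-like tumor, from markers of committed oligodendrocyte precursors such as Enpp6 and Bcas1. Of these nuclei, 27.2% held ATAC counts from the reporter vector, against 2.22% of immune-like nuclei, and GFP RNA stood at 719 against 242 CPM. By summed level they held 3388 CPM of the listed markers of committed precursors, 2376 of OPCs, 4724 of oligodendrocytes, 417 of astrocytes, 430 of neurons and 292 of immune cells. Hmga2 and Tnc, genes of embryonic and glioma cells, were also among the leading genes of cluster 5. The other classes of that library were astrocyte-like tumor (1087 nuclei), OPC-like (93), oligodendrocyte-like (1526), neuron-like (2262) and immune-like (1801). The host classes were named from markers alone, and only glia-like clusters could be called tumor. The paper describes malignant cells of neuron-like type in all its mouse models, with copy number inferred from RNA. Neuron-like nuclei were not checked for such cells here. Nuclei of the host classes were not shown to lack the vector, as neuron-like cluster 2 and oligodendrocyte-like cluster 3 held GFP at 80.0 and 189 CPM. Foxr2 alone held 170 OPC-like, 426 astrocyte-like, 4246 neuron-like and 424 immune-like nuclei. As tumor nuclei were called from vector ATAC and GFP together, none could be called in that library, and its OPC-like cluster held GFP at 97.2 CPM [70.9, 130] and its astrocyte-like cluster 10 at 151 CPM [132, 172], against 19.4 CPM in its immune-like nuclei. A further 3018 nuclei of Foxr2 alone, cluster 0, had oligodendrocyte markers but stayed unnamed, as their median of 1171.5 UMIs was under the limit for their library and their leading genes held none of these markers. Oligodendrocyte-like nuclei of Foxr2 alone are therefore not compared. In Foxr2 p53LOF, 311 nuclei stayed unnamed.

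A level is the UMI count of a gene in a class divided by all UMIs of that class, given in CPM with exact 95% Poisson intervals in square brackets. Each genotype has 1 library with counts, so there are no replicates and no tests, and the intervals cover counting error only. Levels are not compared between genes, since reads are not scaled to transcript length. A level summed over a class does not tell fewer nuclei with a transcript from less of it in each, so shares of nuclei with a UMI are given beside some levels.

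**Figure D1:**
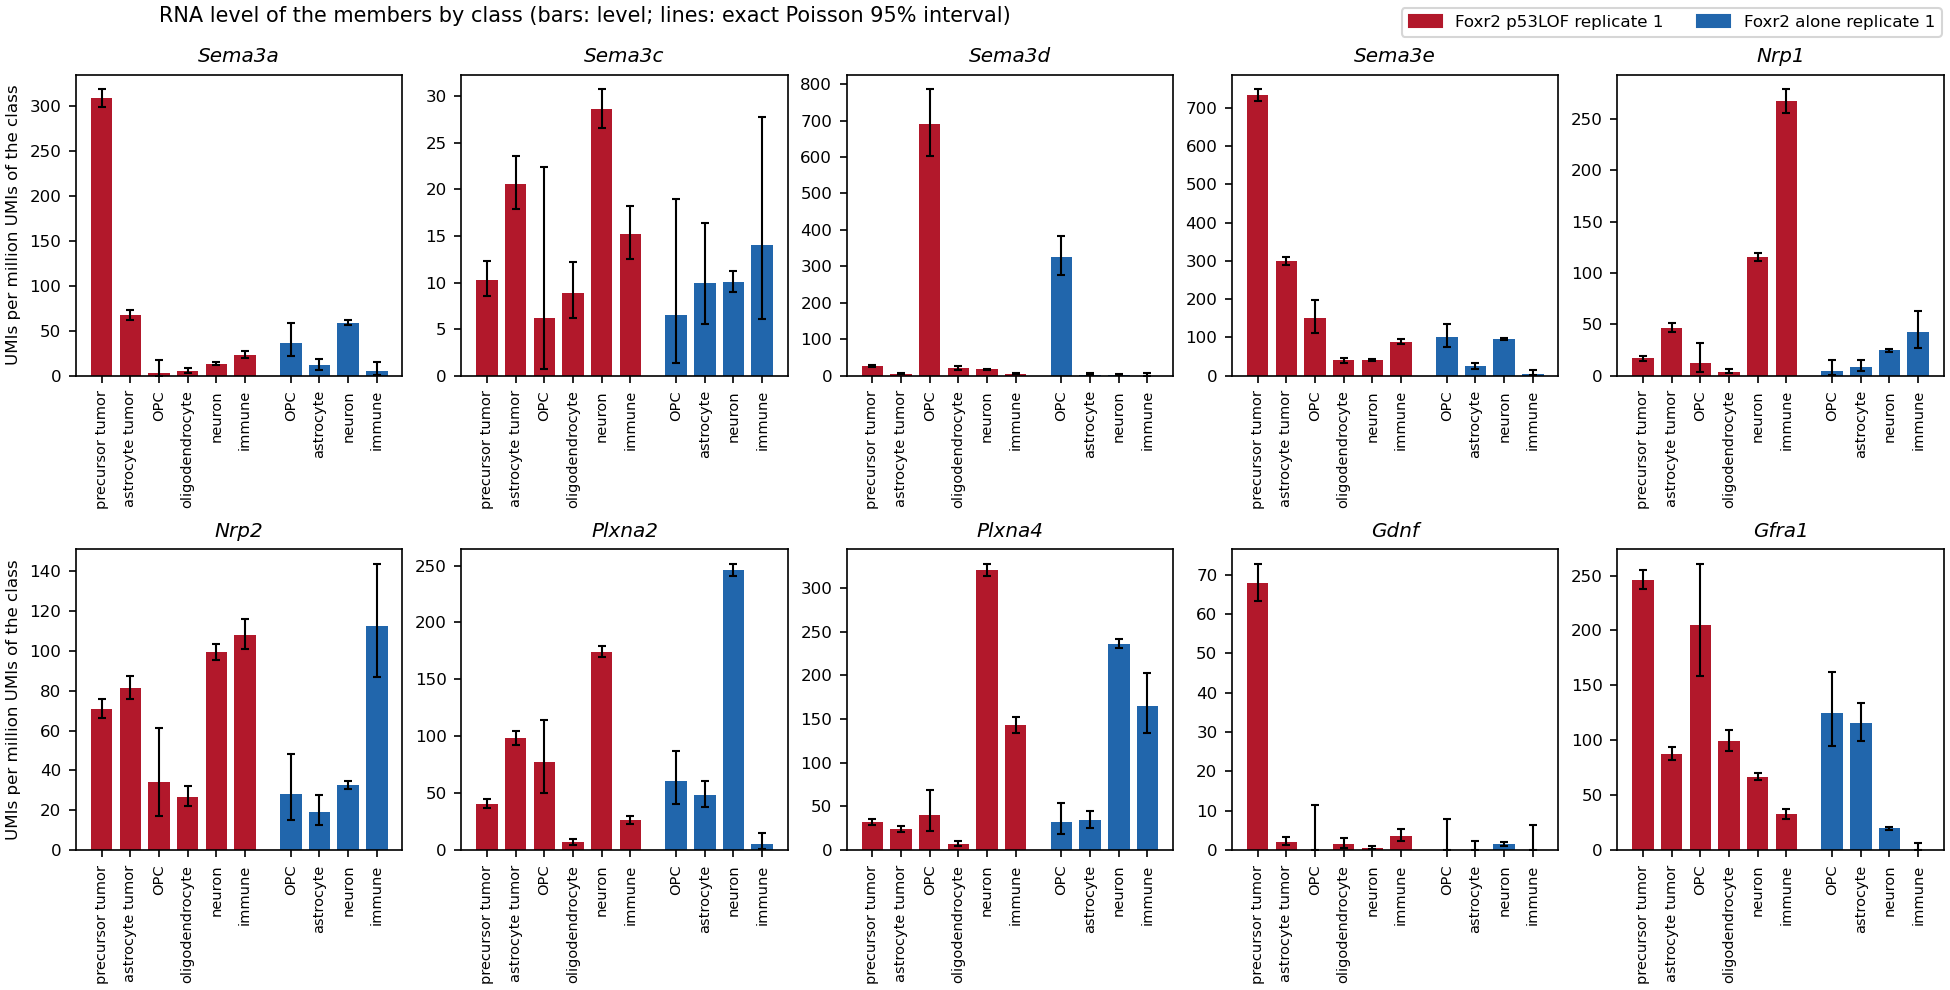
Level of each of the 10 genes in CPM of the class (linear axis from 0, set for each gene), for 6 classes of Foxr2 p53LOF replicate 1 in red and 4 of Foxr2 alone replicate 1 in blue, with lines for the exact 95% Poisson interval. Sema3a, Sema3e and Gdnf were highest in precursor-like tumor nuclei, at 309, 733 and 67.9 CPM, Sema3d was highest in OPC-like nuclei of both libraries, and Plxna4 was highest in neuron-like nuclei.

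Sema3a, a secreted repellent that signals through Nrp1 and plexin-A receptors, stood at 309 CPM [299, 320] in precursor-like tumor nuclei. It stood at 67.4 CPM [62.4, 72.7] in astrocyte-like tumor, 23.1 [19.8, 26.9] in immune-like, 13.2 [11.8, 14.7] in neuron-like, 5.40 [3.38, 8.17] in oligodendrocyte-like and 3.11 [0.0787, 17.3] in OPC-like nuclei of the same library. Both tumor classes were thus above every host class, and the last 2 classes had overlapping intervals. The level was 23.5-fold that of neuron-like nuclei, a log2 ratio of 4.55 [4.39, 4.72], and 57.3-fold that of oligodendrocyte-like nuclei. Over OPC-like nuclei, which held 1 Sema3a UMI, the ratio was 99.5-fold with a wide log2 interval of 4.16 to 11.94. Most of this level came from subcluster 1 of the precursor-like tumor nuclei, described further on, without which Sema3a stood at 97.96 CPM, with log2 ratios of 2.90 over neuron-like and 4.18 over oligodendrocyte-like nuclei. A Sema3a UMI was found in 27.9% of precursor-like tumor nuclei, and in 10.6% [8.91, 12.5] after thinning to 1000 UMIs, which left out 76 of 1274 nuclei with fewer. The thinned share was 0.849% [0.476, 1.40] in immune-like nuclei, a class taken as background, and 6.08% [4.73, 7.67] in astrocyte-like tumor nuclei. At 1000 UMIs a nucleus can miss a transcript of this level, so the thinned share does not tell how many nuclei held Sema3a.

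The Sema3a gene (ENSMUSG00000028883) spans 13125414 to 13602565 on chromosome 5 of mm10, on the plus strand. The file lists starts of it from 13396784 to 13399309, and distances below are from the first of these. Its promoter peak, 13398940 to 13399793, overlaps that stretch. The peak held 9.88 ATAC CPM (counts scaled to 1000000 counts in peaks) in precursor-like tumor nuclei, 11.8 in astrocyte-like tumor, 6.61 in neuron-like and 1.48 in oligodendrocyte-like nuclei. Over neuron-like nuclei its log2 ratio was 0.58 [0.23, 0.93], against 4.55 for the RNA. ATAC intervals take each count as independent, though counts often come in pairs from the same fragment, so they are too narrow. A peak at 270.9 kb, past the end of the gene, held 5.13, 1.09 and 0.123 ATAC CPM in precursor-like tumor, neuron-like and oligodendrocyte-like nuclei. The central 300 bases of this peak are shown from the mm10 genome, plus strand, for their matches to TGANTCA, the letters of an AP-1 site, which are in capitals.
Sema3a 270.9 kb, chr5:13667522-13667821: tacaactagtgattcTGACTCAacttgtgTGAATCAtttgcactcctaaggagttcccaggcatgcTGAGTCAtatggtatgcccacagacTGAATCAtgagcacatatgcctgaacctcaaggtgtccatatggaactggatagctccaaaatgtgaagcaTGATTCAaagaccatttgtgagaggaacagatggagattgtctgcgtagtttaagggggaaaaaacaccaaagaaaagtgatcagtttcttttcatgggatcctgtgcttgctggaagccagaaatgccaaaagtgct
This stretch holds 5 matches to TGANTCA. Of the 16 peaks within the gene or 100 kb of it that had at least 50 counts over the 3 classes, 12 were at least 2-fold higher in precursor-like tumor than in both neuron-like and oligodendrocyte-like nuclei, or 75%. Over all peaks of the library that share was 17.7%. Astrocyte-like tumor nuclei were not part of this count. Among the 12 peaks they held less than precursor-like tumor nuclei at 270.9 kb (0.904 against 5.13 ATAC CPM) and more at 132.7 kb (10.9 against 6.16).

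Sema3e, the ligand of Plxnd1 that needs no neuropilin, stood at 733 CPM [718, 749] in precursor-like tumor nuclei. Astrocyte-like tumor nuclei held 299 CPM [288, 310] and OPC-like nuclei 149 CPM [110, 198]. Immune-like nuclei held 88.1 CPM [81.5, 95.1], neuron-like 40.6 [38.2, 43.2] and oligodendrocyte-like 39.5 [33.6, 46.1]. The last 2 did not differ beyond counting error, and the tumor classes again were highest. The level was 18.1-fold that of neuron-like nuclei (log2 ratio 4.17 [4.08, 4.27]), 18.6-fold that of oligodendrocyte-like nuclei and 4.92-fold that of OPC-like nuclei. A UMI was found in 55.7% of precursor-like tumor nuclei, 28.6% [26.1, 31.3] after thinning, against 3.23% [2.45, 4.16] of immune-like nuclei after thinning.

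Sema3e (ENSMUSG00000063531) lies at 14025276 to 14256689 on chromosome 5, on the plus strand, and Gm4128 overlaps it in antisense. Its promoter peak, 14025070 to 14025949, held 20.7 ATAC CPM in precursor-like tumor nuclei, 14.2 in astrocyte-like tumor, 10.2 in OPC-like, 5.93 in neuron-like and 5.92 in oligodendrocyte-like nuclei. This was 3.49-fold over neuron-like and 3.50-fold over oligodendrocyte-like nuclei. At the main settings it was the only promoter, of the 9 members with a peak near the 5′ end used, that was at least 2-fold higher than in both. That was true of 6.43% of all promoters with a peak. With counts per nucleus the promoters of Sema3a, Sema3c and Gfra1 were higher too, and with a window of 2000 bases that of Gdnf. The RefSeq promoter, 250 bases before to 50 after the start in GRCm38.p6, overlaps this peak and is shown with the centre of the peak at -50.5 kb. The latter peak held 10.1 ATAC CPM in precursor-like tumor, 8.63 in astrocyte-like tumor, 0.885 in neuron-like and 0.247 in oligodendrocyte-like nuclei. None of the 4 motifs searched was in the promoter window, and capitals in the second sequence mark TGANTCA.
Sema3e promoter, chr5:14025026-14025325: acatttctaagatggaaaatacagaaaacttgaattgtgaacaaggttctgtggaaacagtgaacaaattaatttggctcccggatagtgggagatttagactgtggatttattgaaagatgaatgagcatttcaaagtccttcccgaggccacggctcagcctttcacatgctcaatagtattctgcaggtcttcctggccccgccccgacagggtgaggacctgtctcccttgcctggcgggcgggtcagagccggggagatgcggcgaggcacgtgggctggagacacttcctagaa
Sema3e -50.5 kb, chr5:13974652-13974951: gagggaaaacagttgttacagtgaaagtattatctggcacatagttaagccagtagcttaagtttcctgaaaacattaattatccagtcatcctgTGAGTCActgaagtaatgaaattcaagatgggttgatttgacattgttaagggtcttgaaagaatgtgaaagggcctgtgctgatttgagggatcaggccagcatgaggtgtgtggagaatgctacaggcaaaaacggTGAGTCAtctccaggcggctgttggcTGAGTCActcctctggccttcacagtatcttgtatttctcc
The peak at -50.5 kb holds 3 matches to TGANTCA. Around Sema3e, 15 of 24 peaks were at least 2-fold higher than in both host classes (62.5%), the promoter among them. Those at 48.0 and 49.9 kb lay within 1000 bases of the 5′ end of Gm4128. Astrocyte-like tumor nuclei, not part of this count, held more than precursor-like tumor nuclei at -42.7 kb (21.4 against 9.88 ATAC CPM). They held less at 24.9 kb (0.904 against 7.44). A peak in an intron at 24.9 kb had the largest ratio over neuron-like nuclei, 23.8-fold, with 116 counts against 6, and 1 count in oligodendrocyte-like nuclei. Of the 15 peaks, 11 overlapped no peak in either Foxr2 alone list. That was so for 6 of the 12 higher peaks near Sema3a, 2 of the 6 near Gdnf and 36 of the 68 near any member (52.9%). The share was 50.1% among all peaks that were higher in precursor-like tumor nuclei and 24.8% among all peaks of the library.

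Sema3d, a further secreted ligand that binds neuropilins, followed another order. OPC-like nuclei held 690 CPM [602, 787], and precursor-like tumor nuclei 25.2 CPM [22.4, 28.2]. Oligodendrocyte-like nuclei held 20.6 CPM [16.4, 25.5], neuron-like 16.9 [15.4, 18.6], astrocyte-like tumor 4.78 [3.53, 6.34] and immune-like 4.57 [3.17, 6.39]. The level in OPC-like nuclei was 27.4-fold that of precursor-like tumor nuclei, and the OPC-like nuclei of Foxr2 alone, at 326 CPM [276, 382], were likewise the highest class of their library. After thinning, 50.5% of OPC-like and 1.84% [1.15, 2.77] of precursor-like tumor nuclei had a UMI. The promoter peak followed the RNA, with 33.9 ATAC CPM in OPC-like nuclei and 12.1 in precursor-like tumor nuclei, on 20 and 188 counts. Sema3d was kept out of the genes used for clustering, but it stood among the 10 leading genes of the OPC-like cluster afterwards, so its level there describes that cluster.

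Sema3c, which binds both neuropilins, had its highest level among the named classes in neuron-like nuclei. It stood at 10.3 CPM [8.54, 12.3] in precursor-like tumor nuclei, 20.6 [17.9, 23.6] in astrocyte-like tumor nuclei, 28.6 [26.6, 30.8] in neuron-like nuclei and, among immune-like nuclei, 15.2 [12.5, 18.3]. Oligodendrocyte-like nuclei held 8.83 CPM [6.19, 12.2] and OPC-like nuclei 6.22 [0.753, 22.5] on 2 UMIs, both overlapping the precursor-like tumor interval. It was the only ligand of the 4 that was at least 2-fold lower in precursor-like tumor than in neuron-like nuclei, 2.78-fold.

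Taking the 4 ligands as a sum, precursor-like tumor nuclei held 1078 CPM, OPC-like nuclei 849, astrocyte-like tumor nuclei 392, immune-like 131, neuron-like 99.4 and oligodendrocyte-like nuclei 74.3. The log2 ratio was 3.44 [3.38, 3.50] over neuron-like, 3.86 [3.69, 4.03] over oligodendrocyte-like and 0.35 [0.17, 0.52] over OPC-like nuclei. Sema3e made up most UMIs of the sum, which are not scaled to transcript length, in precursor-like tumor nuclei, with 8544 of 12560 UMIs, and Sema3d made up most of it in OPC-like nuclei, with 222 of 273. Both classes with the highest sums thus drew them mostly from different ligands. Without the precursor-like tumor subcluster that held most Sema3a, described further on, the log2 ratios were 2.87 over neuron-like and 3.28 over oligodendrocyte-like nuclei. Over OPC-like nuclei the ratio then turned to -0.23 [-0.40, -0.05], with 724 CPM against 849, so which of both classes held more depended on that subcluster. All 4 ligand genes lie between 12 and 18 Mb of chromosome 5. Of the 3 other genes measured at 10 CPM or more in that stretch (Pclo, Cacna2d1 and Gm3510), 0 were at least 2-fold higher in precursor-like tumor than in both neuron-like and oligodendrocyte-like nuclei (13.5% of all genes). All 3 were highest in neuron-like nuclei, at 1122, 622 and 28.4 CPM, so nothing is read from this count. Chromosome 5 took 6.54% of the ATAC counts in precursor-like tumor nuclei, 6.67% in neuron-like and 6.37% in oligodendrocyte-like nuclei.

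The co-receptors followed another order, with Nrp1 highest in immune-like nuclei. Nrp1, the main neuropilin for Sema3a, stood at 16.7 CPM [14.5, 19.3] in precursor-like tumor nuclei and 46.6 [42.5, 51.1] in astrocyte-like tumor nuclei. Immune-like nuclei held 267 CPM [256, 279] and neuron-like nuclei 116 [111, 120], while OPC-like nuclei held 12.4 [3.39, 31.8] and oligodendrocyte-like nuclei 3.93 [2.24, 6.37]. Precursor-like tumor nuclei were thus 16.0-fold below immune-like and 6.90-fold below neuron-like nuclei, and 4.26-fold above oligodendrocyte-like nuclei. Nrp2, which prefers Sema3c and Sema3f, varied less, with 108 CPM in immune-like, 99.3 in neuron-like, 81.4 in astrocyte-like tumor and 70.9 CPM [66.2, 75.9] in precursor-like tumor nuclei. It was lower in OPC-like and oligodendrocyte-like nuclei, at 34.2 CPM [17.1, 61.2] and 26.7 [22.0, 32.3]. Without subcluster 1, precursor-like tumor nuclei held 38.4 CPM of Nrp2, a log2 ratio of 0.17 over OPC-like and 0.52 over oligodendrocyte-like nuclei. The Nrp1 promoter peak held 5.13 ATAC CPM in precursor-like tumor, 6.20 in neuron-like nuclei and 6.05 in immune-like ones, which did not differ beyond counting error. It held 1 count in oligodendrocyte-like nuclei.

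Plxna2 and Plxna4, the plexins among the members, were highest in neuron-like nuclei. Plxna4, a partner of Nrp1 for Sema3a, stood at 321 CPM [314, 328] in neuron-like nuclei and 143 [135, 152] in those called immune-like, against 32.3 [29.1, 35.7] in precursor-like tumor nuclei. It stood at 40.4 CPM [21.5, 69.1] in OPC-like, 24.2 [21.3, 27.5] in astrocyte-like tumor and 7.11 [4.76, 10.2] in oligodendrocyte-like nuclei. Plxna2 stood at 174 CPM [169, 180] in neuron-like, 98.4 [92.3, 105] in astrocyte-like tumor, 77.7 [50.3, 115] in OPC-like, 40.8 [37.2, 44.6] in precursor-like tumor, 26.2 [22.7, 30.2] in immune-like and 6.87 [4.56, 9.93] in oligodendrocyte-like nuclei. In precursor-like tumor nuclei Plxna4 was 9.95-fold and Plxna2 4.28-fold below the neuron-like level. Without subcluster 1, Plxna4 stood at 19.1 CPM, a log2 ratio of -4.07 over neuron-like nuclei. Antisense genes overlap Plxna4, and since reads of such pairs are told apart only by strand, this level is less certain. The promoter peaks of Plxna2 and Plxna4 differed less, at 25.3 against 38.8 and 21.9 against 38.9 ATAC CPM in precursor-like tumor and neuron-like nuclei.

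Gdnf, the founding ligand of its family, was read mostly in precursor-like tumor nuclei. They held 791 Gdnf UMIs, or 67.9 CPM [63.3, 72.8], against 3.63 CPM [2.39, 5.28] in immune-like, 2.19 [1.37, 3.32] in astrocyte-like tumor, 1.47 [0.540, 3.20] in oligodendrocyte-like and 0.674 [0.393, 1.08] in neuron-like nuclei. OPC-like nuclei held 0 UMIs, which allows up to 9.32 CPM when 0 is set at 3 UMIs. The level was 101-fold that of neuron-like nuclei, with a log2 ratio of 6.65 [5.97, 7.44] on 17 neuron-like UMIs, and 31.0-fold that of astrocyte-like tumor nuclei. Against OPC-like nuclei, at that limit, it was at least 7.28-fold higher. Without subcluster 1, Gdnf stood at 28.1 CPM, with log2 ratios of 5.38 over neuron-like and 3.68 over astrocyte-like tumor nuclei. A UMI was found in 19.3% of precursor-like tumor nuclei and in 5.01% [3.84, 6.40] after thinning, against 0.170% [0.0350, 0.495] of immune-like nuclei. In contrast to Sema3a and Sema3e, the astrocyte-like tumor nuclei had a Gdnf level whose interval overlapped that of immune-like nuclei.

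Gdnf (ENSMUSG00000022144) lies at 7810846 to 7837575 on chromosome 15, on the plus strand. In Foxr2 p53LOF and Foxr2 alone replicate 2, no peak lay within 1000 bases of the 5′ end used for the gene, while Foxr2 alone replicate 1 had one, 7810046 to 7810929. In that library this peak held 7.67 ATAC CPM in neuron-like nuclei. Foxr2 p53LOF instead had a peak at 2.32 kb, 7812814 to 7813520, in an intron and overlapping the 300-base window of a second RefSeq promoter of Gdnf. It held 19.0 ATAC CPM in precursor-like tumor nuclei, 16.9 in OPC-like, 7.97 in neuron-like, 5.91 in astrocyte-like tumor and 4.44 in oligodendrocyte-like nuclei. OPC-like nuclei thus held counts in it with 0 Gdnf UMIs. Its central 300 bases, with no match to the motifs searched, are shown as the nearest open stretch to a Gdnf start in this library.
Gdnf 2.3 kb, chr15:7813017-7813316: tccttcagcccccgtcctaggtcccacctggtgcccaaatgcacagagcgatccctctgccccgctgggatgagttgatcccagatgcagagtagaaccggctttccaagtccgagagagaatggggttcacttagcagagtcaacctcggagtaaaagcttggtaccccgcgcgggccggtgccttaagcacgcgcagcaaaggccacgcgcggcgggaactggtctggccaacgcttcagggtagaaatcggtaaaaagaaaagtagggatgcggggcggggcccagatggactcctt
Of the 11 peaks around Gdnf, 6 were at least 2-fold higher in precursor-like tumor than in both neuron-like and oligodendrocyte-like nuclei. The largest ratio over neuron-like nuclei, 6.84-fold, was at 67.2 kb, with 13.5 ATAC CPM in precursor-like tumor, 8.79 in astrocyte-like tumor, 1.98 in neuron-like and 1.36 in oligodendrocyte-like nuclei.

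Gfra1, the membrane-bound receptor for Gdnf, was also highest in precursor-like tumor nuclei, at 246 CPM [237, 255]. OPC-like nuclei followed at 205 CPM [159, 261], with overlapping intervals, and oligodendrocyte-like nuclei held 99.4 [89.9, 110], astrocyte-like tumor nuclei 87.7 [82.0, 93.7], neuron-like 66.6 [63.4, 69.9] and immune-like 32.7 [28.7, 37.1]. The level was 3.70-fold that of neuron-like, 2.48-fold that of oligodendrocyte-like and 1.20-fold that of OPC-like nuclei. Without subcluster 1 it stood at 153 CPM, below OPC-like nuclei, with log2 ratios of 1.20 over neuron-like, 0.62 over oligodendrocyte-like and -0.42 over OPC-like nuclei. The antisense gene Gm16277 overlaps Gfra1. A few neurons held as much, as cluster 17, led by Slc6a3 and Ret, stood at 251 CPM on 130 nuclei. Gfra1 (ENSMUSG00000025089) lies at 58235604 to 58455909 on chromosome 19, on the minus strand, and its promoter peaks held 47.7 ATAC CPM in precursor-like tumor, 46.0 in oligodendrocyte-like, 44.1 in OPC-like, 33.3 in astrocyte-like tumor and 17.0 in neuron-like nuclei. The promoter thus did not separate precursor-like tumor from oligodendrocyte-like nuclei. A peak in an intron at 167.0 kb did, with 13.5 ATAC CPM in precursor-like tumor, 12.7 in astrocyte-like tumor, 5.08 in OPC-like, 1.60 in oligodendrocyte-like and 1.35 in neuron-like nuclei. It is shown for that reason, on the plus strand of mm10, with matches to TGANTCA and CAGCTG in capitals.
Gfra1 167.0 kb, chr19:58288265-58288564: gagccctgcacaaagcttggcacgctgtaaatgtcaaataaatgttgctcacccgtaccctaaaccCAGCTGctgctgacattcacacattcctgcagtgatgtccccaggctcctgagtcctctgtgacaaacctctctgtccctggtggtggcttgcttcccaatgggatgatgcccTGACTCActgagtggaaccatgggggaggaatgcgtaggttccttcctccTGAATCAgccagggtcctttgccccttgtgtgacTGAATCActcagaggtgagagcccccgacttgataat
This stretch holds 3 matches to TGANTCA and 1 to CAGCTG.

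Set side by side, 4 of the 10 members (Sema3a, Sema3e, Gdnf and Gfra1) were at least 2-fold higher in precursor-like tumor than in both neuron-like and oligodendrocyte-like nuclei. Of all genes with at least 10 CPM in a class compared, 13.5% were. Gfra1 was no longer among them with size factors, with no doublet removal, where the neuron-like class also changed, or without the Sema3a-rich subcluster, subcluster 1, where 3 members were left. Over neuron-like nuclei alone, these 4 were higher (30.1% of all genes) and 4 were lower, Sema3c, Nrp1, Plxna2 and Plxna4 (18.9%). Over oligodendrocyte-like nuclei, 8 were higher (27.4%) and 0 lower (10.3%), and Sema3c and Sema3d, with log2 ratios of 0.22 and 0.29, took the opposite sign under size factors. Over OPC-like nuclei, Sema3a, Sema3e, Nrp2 and Gdnf were higher (26.2%) and Sema3d was lower (15.4%). Over astrocyte-like tumor nuclei, Sema3a, Sema3d, Sema3e, Gdnf and Gfra1 were higher (9.96%) and Sema3c, Nrp1 and Plxna2 lower (9.91%), with Sema3c at 2.00-fold. Without subcluster 1, Sema3a, Sema3e and Gfra1 were within 2-fold of astrocyte-like tumor nuclei, at log2 ratios of 0.54, 0.97 and 0.80, and Nrp2 was past 2-fold lower, at -1.08. Nrp2 was then also within 2-fold of oligodendrocyte-like and OPC-like nuclei, at 0.52 and 0.17, and past 2-fold lower than neuron-like and immune-like nuclei, at -1.37 and -1.49, while Plxna4 was past 2-fold lower than OPC-like nuclei, at -1.08. Over immune-like nuclei, 5 were higher (17.2%) and Nrp1 and Plxna4 lower (17.1%). The astrocyte-like tumor nuclei, of which 9 members reached 10 CPM in either comparison, held 5.12-fold more Sema3a and 7.36-fold more Sema3e than neuron-like nuclei (2 members higher, 25% of all genes) and less Sema3d, Nrp1 and Plxna4 (18.3%), by 3.54-fold, 2.48-fold and 13.3-fold. Over oligodendrocyte-like nuclei, 7 members were higher in them (28.1%), namely Sema3a, Sema3c, Sema3e, Nrp1, Nrp2, Plxna2 and Plxna4, and Sema3d was lower (12.8%). As the members were chosen on this contrast, nothing is read from these counts beyond the values. In shares of nuclei with a UMI, 6 members lay above the immune-like share with intervals that did not overlap, with and without thinning: Sema3a, Sema3d, Sema3e, Plxna2, Gdnf and Gfra1. The percent of all genes that did so was not computed, so nothing is read from this count either.

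**Figure D2:**
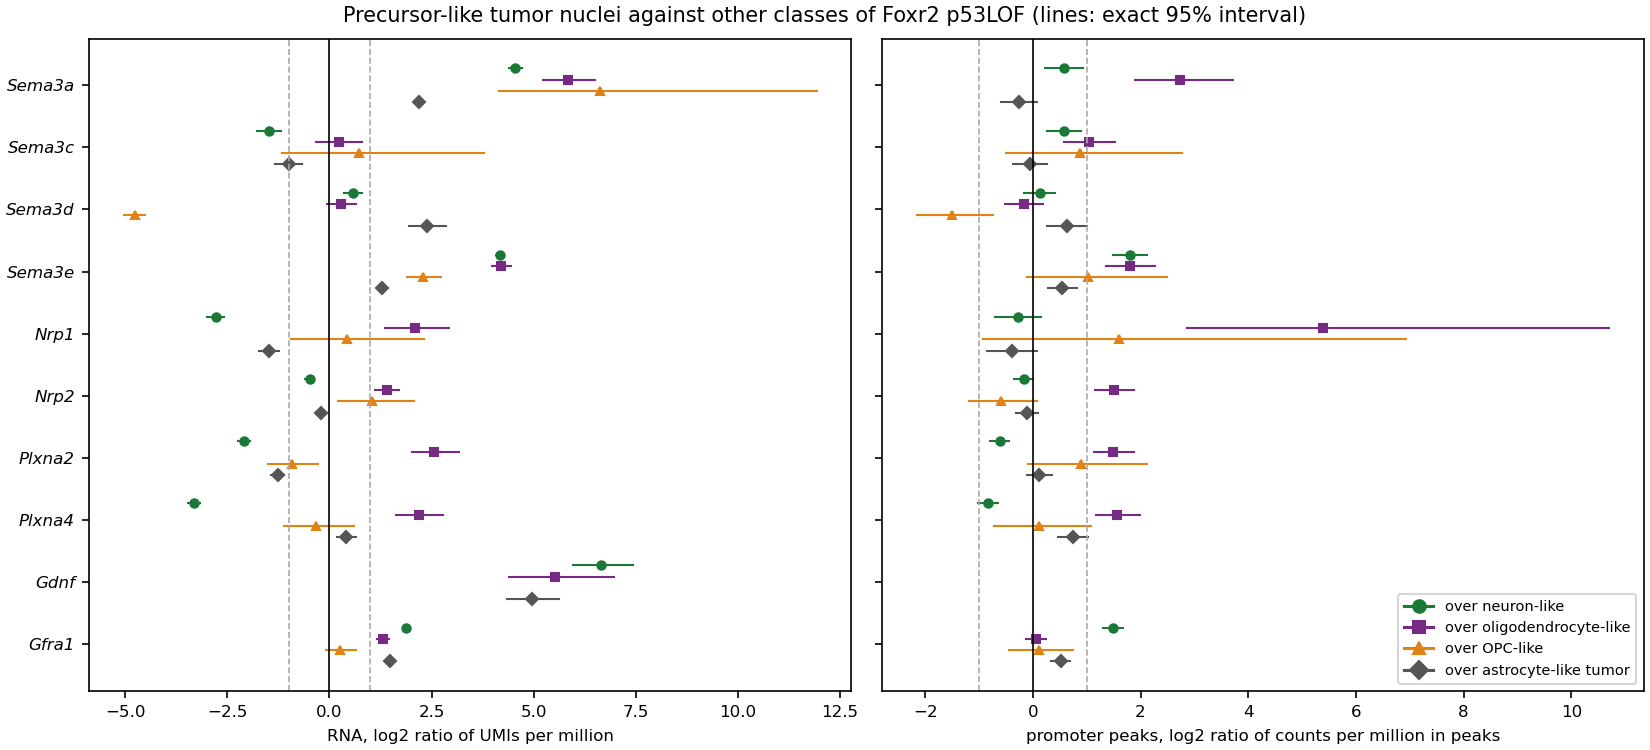
Log2 ratio of precursor-like tumor nuclei over neuron-like (green circles), oligodendrocyte-like (purple squares), OPC-like (orange triangles) and astrocyte-like tumor nuclei (grey diamonds) of Foxr2 p53LOF, for RNA (left) and promoter peaks (right) of the 10 genes, with lines for exact 95% intervals and dashed lines at 2-fold. In RNA, Sema3a and Sema3e lay above 0 against all 4 classes drawn and Nrp1 below 0 against neuron-like and astrocyte-like tumor nuclei. Ratios to a class at 0 are not drawn, and Gdnf had no peak near the 5′ end used for it in this library, though it had one at a second RefSeq promoter.

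The promoters gave a different count from the RNA. Over neuron-like nuclei, the promoter peaks of Sema3e and Gfra1 were at least 2-fold higher (11.1% of all promoters with a peak) and 0 members were lower (11.3%). Over oligodendrocyte-like nuclei, 7 were higher (23.2%), namely Sema3a, Sema3c, Sema3e, Nrp1, Nrp2, Plxna2 and Plxna4, and 0 lower (3.61%). Over OPC-like nuclei, Sema3e and Nrp1 were higher (12.7%) and Sema3d lower (7.35%). The first rest on 6 and 1 OPC-like counts, with log2 ratios of 1.03 [-0.11, 2.48] and 1.60 [-0.92, 6.92], so neither differed beyond counting error. The Sema3a promoter held 0 OPC-like counts, for a ratio of at least 1.94-fold. Over immune-like nuclei, 6 promoters were higher (25.5%), those of Sema3a, Sema3c, Sema3d, Sema3e, Plxna2 and Gfra1, and 0 lower (8.06%). Between the tumor classes, 0 of the 9 promoters differed by 2-fold either way (5.59% and 3.81% of all promoters), although 4 of these 9 genes were higher and 3 lower in RNA. With all subclusters, Sema3a showed this most plainly, with 4.59-fold more RNA in precursor-like than in astrocyte-like tumor nuclei and a promoter log2 ratio of -0.26 [-0.60, 0.08]. Without subcluster 1 the RNA of Sema3a, Sema3e and Gfra1 was within 2-fold, at log2 ratios of 0.54, 0.97 and 0.80. Sema3d then stayed higher, at 2.78, and Nrp2 was past 2-fold lower. Between OPC-like and neuron-like nuclei of the same library, the promoters of Sema3d (3.07-fold) and Gfra1 (2.59-fold) were higher in the former (7.31%) and those of Nrp1, on 1 count, and Plxna2 lower (15.5%).

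**Figure D3:**
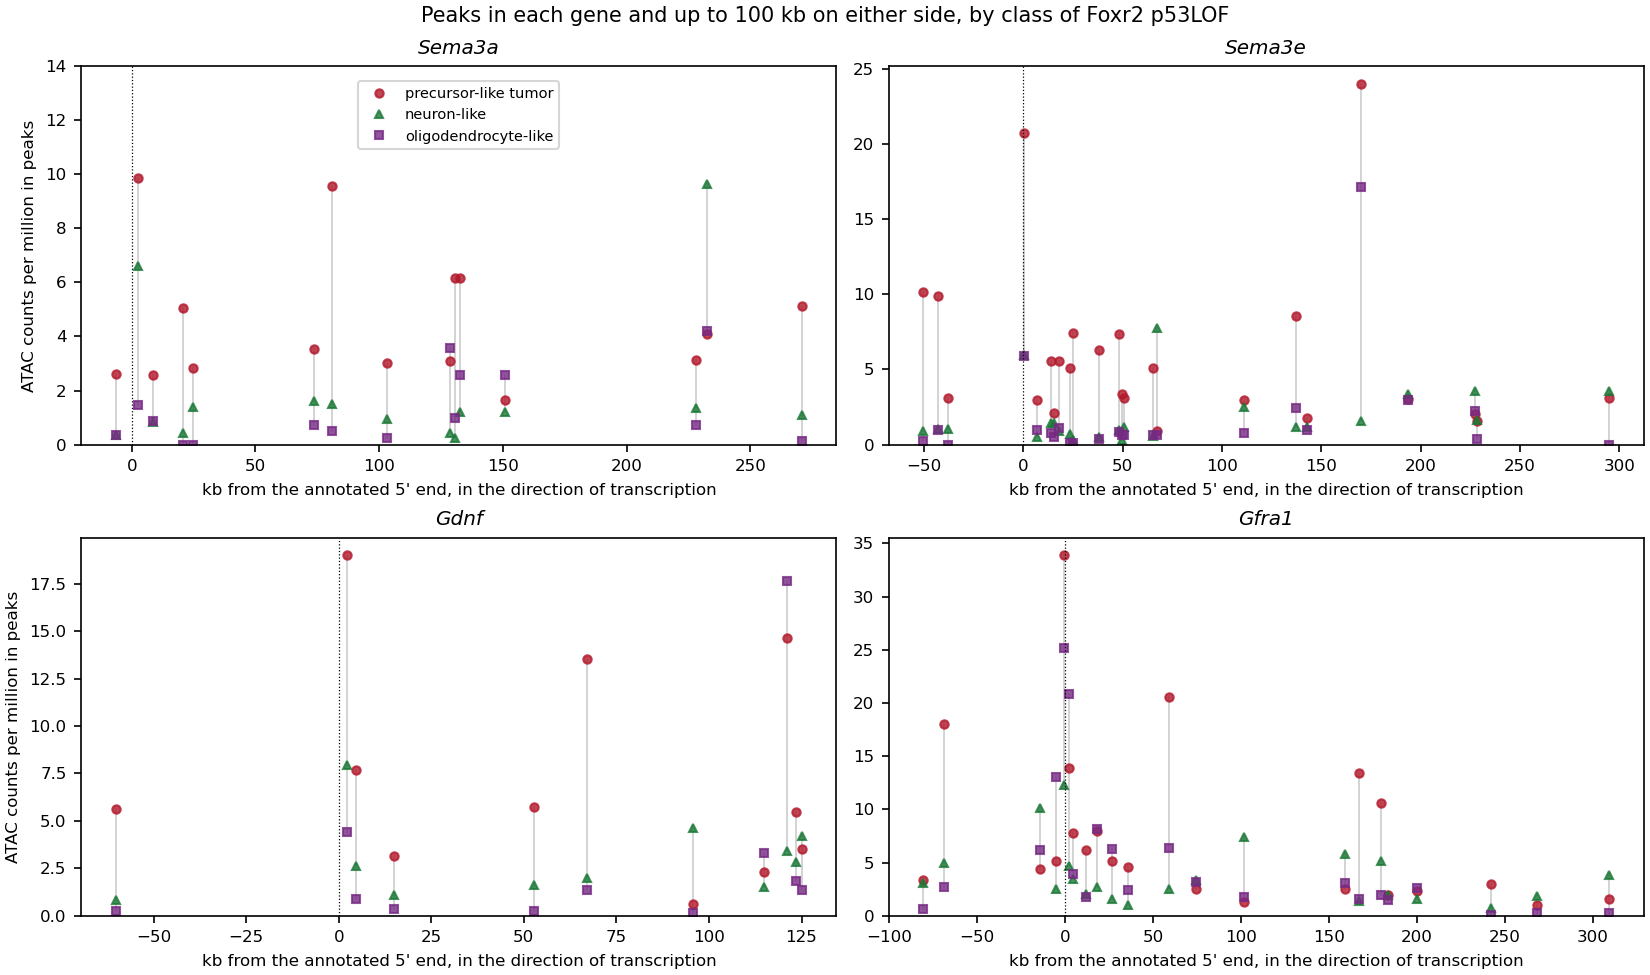
ATAC CPM of the peaks around Sema3a, Sema3e, Gdnf and Gfra1, all but 1 near Sema3a, against the distance of its centre from the 5′ end of the gene in kb, for precursor-like tumor, neuron-like and oligodendrocyte-like nuclei of Foxr2 p53LOF. Near Sema3a and Sema3e, 12 of 16 and 15 of 24 peaks were at least 2-fold higher in precursor-like tumor nuclei than in both host classes, at distances from -50.5 to 270.9 kb. Astrocyte-like tumor nuclei are not drawn and were not part of these counts.

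For the other members, the number of peaks higher in precursor-like tumor than in both host classes was 3 of 7 for Sema3c, 2 of 8 for Sema3d, 5 of 15 for Nrp1, 5 of 29 for Nrp2, 7 of 29 for Plxna2, 7 of 29 for Plxna4 and 6 of 22 for Gfra1. Astrocyte-like tumor nuclei were not part of these counts either. The shares for Nrp2 (17.2%), Plxna2 and Plxna4 (24.1% each) were near the 17.7% of all peaks, while those for Sema3a, Sema3e and Gdnf (54.5%) were the highest of the 10. A peak at -24.4 kb from Nrp2 stood out by ratio, 19.6-fold over neuron-like and 91.0-fold over oligodendrocyte-like nuclei, the latter on 1 count, while the RNA was below the neuron-like level. Matches to TGANTCA were found in the central 300 bases of 30 of the 68 peaks that were higher near any member, or 44.1%. The share was 49.5% among all 18892 peaks higher in precursor-like tumor nuclei and 20.9% among all peaks. CAGCTG was found in 26.5% of the 68, against 28.8% of all higher peaks and 25.2% of all peaks. ACAATGG, a SOX motif, was in 4.41%, against 6.79% and 5.31%, and CCGGAAG, an ETS motif, in 1.47%, against 2.40% and 4.06%, with both strands searched. The last pair were in 3 and 1 of the 68 peaks. Among the RefSeq promoters of the 9 members that had one, the single match was CAGCTG in Gfra1, a motif held by 16.3% of 32851 promoters. A match is a description of letters and does not show that a factor binds.

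Precursor-like tumor nuclei were not uniform in these genes. Clustered again without the 10 genes, they fell into 10 subclusters, and subcluster 1, with 333 of 1274 nuclei, held 2812 of the 3603 Sema3a UMIs and 564 of the 791 Gdnf UMIs. Its levels were 787 CPM [758, 816] for Sema3a, 1071 [1037, 1106] for Sema3e, 158 [145, 171] for Gdnf, 457 [435, 479] for Gfra1 and 144 [132, 157] for Nrp2. Its leading genes included Unc5d, Lmx1a, Pde11a and Col23a1. Subcluster 3, with 241 nuclei, had more of the committed precursor markers Enpp6 (588 against 215 CPM in subcluster 1) and Bmp4 (112 against 9.23 CPM). The OPC marker Pdgfra went the other way, at 77.8 CPM against 246 in subcluster 1. Subcluster 3 held 664 CPM [634, 695] of Sema3e but 50.5 CPM [42.6, 59.4] of Sema3a and 23.1 CPM [17.9, 29.4] of Gdnf. Sema3e was thus read at 664 and 1071 CPM in subclusters that held 50.5 and 787 CPM of Sema3a.

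**Figure D4:**
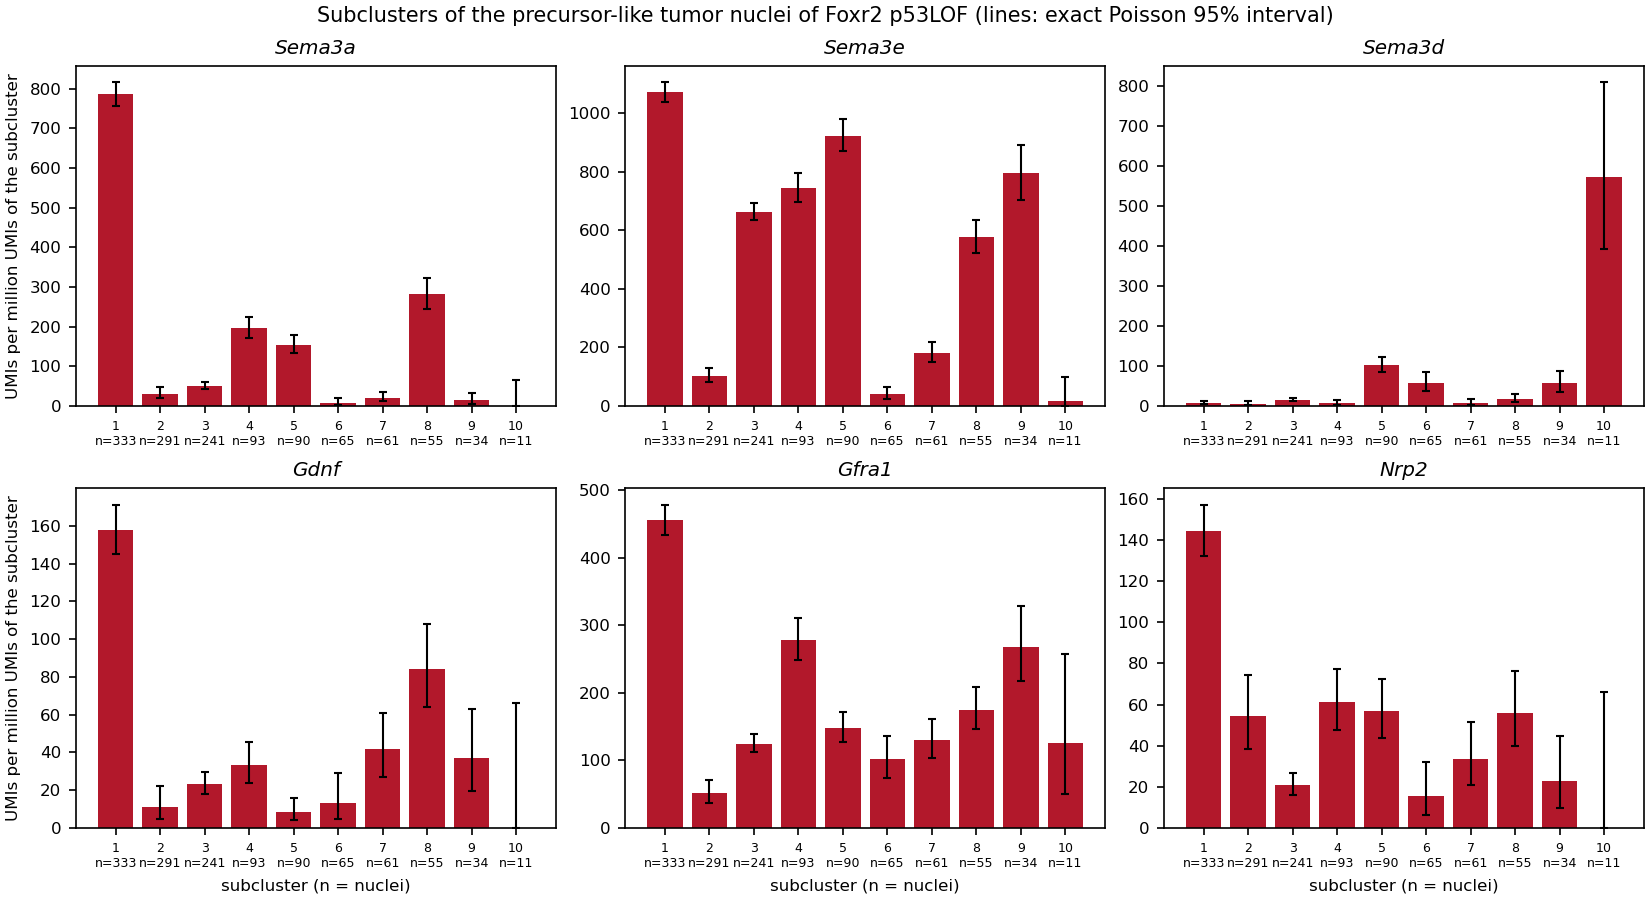
Level of Sema3a, Sema3e, Gdnf, Gfra1, Nrp2 and Sema3d in CPM in each subcluster of precursor-like tumor nuclei, with the number of nuclei under each bar and lines for exact 95% Poisson intervals. Sema3a, Gdnf, Gfra1 and Nrp2 were highest in subcluster 1, while Sema3e stood between 577 and 1071 CPM in subclusters 1, 3, 4, 5, 8 and 9.

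Other subclusters held other mixtures. Subcluster 5, led by Kif11, Knl1 and other genes of mitosis, held 924 CPM of Sema3e, 154 of Sema3a, 102 CPM [84.1, 122] of Sema3d and 8.61 of Gdnf. Subcluster 8, led by Cybb, Adgre1 and other genes of myeloid cells, held 282 CPM [244, 323] of Sema3a and 84.1 [64.2, 108] of Gdnf on 55 nuclei at a median of 12252 UMIs, and the part of mixed nuclei in it was not tested. Subcluster 6, with 65 nuclei and the highest Enpp6 and Bcas1 among those of over 50 nuclei, held 39.8 CPM [23.6, 62.9] of Sema3e and 3 UMIs of Sema3a. Its vector share was 12.3%, against 23.7% in subcluster 1, on 65 and 333 nuclei with medians of 6234 and 9149 UMIs. Whether these shares differ beyond counting error or depth was not tested. The 11 nuclei of subcluster 10, with a vector share of 0, held 572 CPM [391, 808] of Sema3d and 0 Sema3a UMIs. Subcluster 2, 291 nuclei with a median of 1557 UMIs and led by the heat shock genes Hspa1a and Hspa1b, held 30.6 CPM of Sema3a, 102 of Sema3e and 54.3 of Nrp2.

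The same nuclei were also split by the vector. The 1130 nuclei with a GFP UMI or a vector ATAC count held 318 CPM [307, 328] of Sema3a, 751 [735, 767] of Sema3e and 70.6 [65.7, 75.8] of Gdnf. The 144 nuclei without either held 181 [151, 215], 464 [415, 517] and 26.6 [16.0, 41.6], each above the host classes, while Gfra1 was higher in them, at 310 [270, 354] against 242 [233, 252]. The nuclei without a vector count had a median of 3974 UMIs against 8032, and the part of this depth in the difference was not tested. Split by a UMI of the proliferation genes Mki67 or Top2a, the 433 nuclei with one held 225 CPM of Sema3a and 45.3 of Gdnf, against 375 and 85.3 in the 841 without. Sema3d went the other way, at 39.8 CPM [34.5, 45.7] against 13.8 [11.1, 17.0]. Subcluster 1, which held most Sema3a UMIs, had Mki67 at 26.3 CPM, and the mitotic subcluster 5 had it at 570 CPM. The part of the subclusters and of depth in this split was not tested.

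Over 19 clusters of at least 50 nuclei, the genes whose pattern was most like that of the summed ligands were Syt6 (Pearson r = 0.81 of log2(CPM + 1)), Vkorc1l1 (0.79), Stk32a (0.77), Phlda1 (0.77), Col18a1 (0.77), Abhd2 (0.76), Ust (0.75), Paxbp1 (0.75), Khdc4 (0.75) and Megf11 (0.74), of 8852 genes ranked. Syt6, a synaptotagmin, stood at 185 CPM in cluster 5 and 19.3 CPM in the median cluster, and Phlda1 and Col18a1 at 166 and 115 CPM in cluster 5. Stk32a, Abhd2, Ust and Megf11 were highest in the OPC-like cluster, and Megf11 was among the markers that named it. The clusters share libraries and depth, so these correlations are a description.

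Other genes of the pathways showed how the receptors of these ligands stood. Of 55 listed genes, 41 reached 10 CPM in precursor-like tumor or neuron-like nuclei, and 10 of these were at least 2-fold higher (30.1% of all genes) and 13 at least 2-fold lower (18.9%) in precursor-like tumor nuclei. Plxnd1, the receptor of Sema3e, stood at 15.2 CPM against 3.37 in neuron-like nuclei. Plxna1, another plexin for class 3 ligands, stood at 14.8 CPM against 43.9, and Plxna3, a partner of Nrp2, at 16.8 against 12.7 CPM. Of the plexins of the B type, which bind class 4 and 5 semaphorins, Plxnb2 stood at 26.4 against 19.6 CPM, within 2-fold, and the other two were higher, with Plxnb3 at 114 CPM against 1.39 and Plxnb1 at 24.6 against 5.31, while Plxnc1, the receptor of Sema7a, stood at 5.58 against 82.4 CPM. L1cam, an adhesion molecule that joins Nrp1 in axons, stood at 7.73 against 109 CPM, and its relative Nrcam at 858 against 380 CPM. Among the plexins, 3 of 7 were thus higher and 2 lower, and among the neuropilin-associated adhesion molecules 1 of 3 was higher and 1 lower. Ret, the kinase that Gdnf and Gfra1 activate, was at 0.858 CPM in precursor-like tumor against 45.8 CPM in neuron-like nuclei, a log2 ratio of -5.74 [-6.80, -4.85], and Ncam1, the other signaling partner, at 394 against 733 CPM, a log2 ratio of -0.90.

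Among ligands outside the members, Sema3f was lower (3.00 against 10.8 CPM), and Sema3b and Sema3g stayed under 10 CPM in both classes. The membrane-bound Sema6a (393 against 106 CPM), Sema4c (36.7 against 6.03) and Sema7a (38.7 against 14.6) were higher, while Sema4a, Sema4f, Sema4g, Sema6b and Sema6c were lower, with log2 ratios from -4.41 for Sema6c to -1.59. Vegfa, which shares the neuropilins, and Flt1, a VEGF receptor, were higher, at 57.3 against 12.3 and 18.7 against 1.23 CPM, and Vegfc was lower at 3.78 against 11.2 CPM. Of the relay proteins inside the cell, Fyn, a kinase downstream of plexin-A and Gfra1, was higher (550 against 153 CPM), and Crmp1, a mediator of growth cone collapse, and Mical2, an oxidase of actin, were lower (33.2 against 70.2 CPM, and a log2 ratio of -1.53). Over oligodendrocyte-like nuclei, 19 of 32 listed genes were higher (27.4% of all genes) and 2 (Cdk5 and Ncam1) lower (10.3%).

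Between the libraries, each value is of 1 library, so genotype and library cannot be told apart. OPC-like nuclei, all of cluster 14, held 690 CPM of Sema3d in Foxr2 p53LOF and 326 in Foxr2 alone, a ratio of 2.12-fold, while Sema3e stood at 149 and 102 CPM with overlapping intervals, and Sema3a at 3.11 [0.0787, 17.3] and 36.7 [21.4, 58.8] CPM. In that comparison 2 members were higher (10.4% of all genes), the other being Nrp1 on 4 and 2 UMIs, and Sema3a was lower (22.8%). Neuron-like nuclei came mostly from cluster 2 in Foxr2 p53LOF and from clusters 1 and 7 in Foxr2 alone, where Drd2 was among the leading genes of cluster 1. Sema3a was at 13.2 CPM in those of Foxr2 p53LOF and 59.0 in those of Foxr2 alone, and Sema3e at 40.6 and 96.0, so both were lower in the former (18.9% of all genes). Sema3c, Sema3d, Nrp1, Nrp2 and Gfra1 were higher (13.3%), with Nrp1 at 116 against 24.6 CPM. In Foxr2 alone the highest Sema3a and Sema3e were in neuron-like cluster 9, led by Tac1 and Dlx6os1, at 115 and 319 CPM. Relative to OPC-like nuclei of Foxr2 alone, precursor-like tumor nuclei held 8.42-fold more Sema3a and 7.23-fold more Sema3e, a log2 ratio of -3.70 [-3.98, -3.40] for Sema3d, and at least 10.5-fold more Gdnf with that class at 0 UMIs. In that comparison 5 members were higher (21.7%), the others being Nrp1 and Nrp2, and Sema3d alone was lower (24.3%). Without subcluster 1 the levels in precursor-like tumor nuclei were 97.96 CPM for Sema3a against 36.7, 28.1 for Gdnf against 0, and 38.4 for Nrp2 against 28.1 CPM, the last within 2-fold. Gdnf reached at most 1.54 CPM in a named class of Foxr2 alone, with 51 UMIs in 4246 neuron-like nuclei and 0 in OPC-like, astrocyte-like and immune-like nuclei.

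Within each library, OPC-like nuclei were also set against neuron-like nuclei, a contrast without the classes called tumor. No cluster of Foxr2 alone could be called tumor, and no neuron-like cluster of either library. In Foxr2 alone, Sema3d was 130-fold and Gfra1 6.31-fold higher in OPC-like nuclei (2 members, 19.7% of all genes), and Nrp1, Plxna2 and Plxna4 were lower (15.3%), the last by 7.29-fold. In Foxr2 p53LOF, Sema3d was 40.7-fold, Sema3e 3.67-fold and Gfra1 3.08-fold higher (17.7%), and the other 6 members that reached 10 CPM were lower (18.5%), Sema3a among them on 1 OPC-like UMI with an interval that includes no change. Sema3d and Gfra1 were thus above the neuron-like level in the OPC-like nuclei of both libraries, and Nrp1, Plxna2 and Plxna4 below it. The promoters of Foxr2 alone gave the same direction for the first pair, with Sema3d 5.56-fold and Gfra1 17.7-fold higher (15.3%), and those of Sema3a and Gdnf, the latter on 2 counts, were lower (14.3%). The immune-like nuclei came from different clusters in each library, with 1288 in cluster 4 and 510 in cluster 8 of Foxr2 p53LOF and 416 in cluster 12 of Foxr2 alone. Those of Foxr2 p53LOF held more of 5 members than those of Foxr2 alone (18.1%), and 0 were lower (22.5%). Nrp1 was 6.33-fold higher, and Sema3a, Sema3e and Plxna2 were 4.38-fold, 16.7-fold and 4.97-fold higher, each on 3 UMIs in Foxr2 alone. Gfra1 was at least 6.19-fold higher, with 0 UMIs there. The immune-like nuclei of Foxr2 p53LOF also held more of the listed OPC markers (602 against 106 CPM in sum), oligodendrocyte markers (1742 against 774 CPM) and GFP (242 against 19.4 CPM), and their part in these differences was not tested.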

How the data were processed

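Nuclei of 3 mouse brain lesions were read with the 10x Multiome assay (6 records, RNA and ATAC). The authors made the deposited counts per barcode (UMIs for genes, transposition events for peaks) with Cell Ranger ARC 2.0.0 on mm10 plus vector sequences, calling cells and peaks per library, with no further normalization. Nuclei with at most 5% mitochondrial UMIs, at least 400 genes and 400 fragments were kept below the upper limits of the study's methods, and 353 and 540 doublets called by Scrublet (scanpy 1.11.5) were removed. Libraries were clustered together (2000 variable genes, 30 components, 20 neighbours, Leiden resolution 0.5) without the members and the pathway list. Classes were named from marker lists, where a class needed at least 3 markers at least 2-fold up. Both naming limits were chosen with the data in view. Glia-like clusters were called tumor where both GFP RNA and vector ATAC lay above immune-like nuclei with intervals that did not overlap.

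UMIs were summed per class as CPM with exact Poisson intervals, shares with exact binomial (Clopper-Pearson) intervals, and ratios with exact conditional binomial intervals, all at 95% and for counting error only. A fragment can give a pair of ATAC events, and 80.7% of nonzero ATAC entries in Foxr2 p53LOF and 82.9% in Foxr2 alone replicate 1 were even numbers. The intervals take each event as independent, so those for ATAC are too narrow even for counting error. A class at 0 was set at 3 counts. Genes needed 10 CPM in a class, and promoters (peaks within 1000 bases of the 5′ end, or of the stretch of starts listed for a gene) 50 counts, to enter counts of 2-fold differences. With 1 library per genotype no test was made. The members and lists were chosen with earlier results of these data known. Named were all members, pathway genes past 2-fold against neuron-like nuclei with Plxna1, Plxna3, Plxnd1, Ret and L1cam, and the 10 genes most like the summed ligands. Plxnb2, Ncam1, Sema3b, Sema3g, Cdk5, Pclo, Cacna2d1, Gm3510 and leading genes of clusters were named after their values were seen. Promoter sequences came from RefSeq (GRCm38.p6, matched for 9 members), peak centres from the genome of the same build. The counting code was tested on simulated data. Alternatives covered scaling, filters, doublets, clustering, vector-positive nuclei, fold limit and promoter window. Values of 1 peak near Sema3a and of 1 neuron-like cluster are not reported here.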

Additional observations from a re-analysis of the deposited data

Results flagged for a closer look

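In Foxr2 p53LOF the level of Sema3a was higher in immune-like than in neuron-like nuclei, with a log2 ratio of 0.8132 [0.54, 1.08], while in Foxr2 alone it was lower, at -3.482 [-5.76, -1.93] on 3 immune-like UMIs. For Sema3e the log2 ratios were 1.117 [0.97, 1.26] and -4.185 [-6.46, -2.64]. Both were singled out because the libraries went in opposite directions, and the difference between them was not tested. Both sides of the ratio differed between the libraries. In neuron-like nuclei, mostly of different clusters, both genes were at least 2-fold lower in Foxr2 p53LOF than in Foxr2 alone. The immune-like nuclei were mostly of clusters 4 and 8 in Foxr2 p53LOF and of cluster 12 in Foxr2 alone. Immune-like nuclei of Foxr2 p53LOF also held 242 CPM of GFP against 19.4 CPM in those of Foxr2 alone, 602 against 106 CPM of OPC markers and 1742 against 774 CPM of oligodendrocyte markers, and the part of RNA from other cells in these values was not tested. Within Foxr2 p53LOF, immune-like cluster 4 held 105 CPM of Sema3e and cluster 8 held 27.5 CPM.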

How the results depend on the processing

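The sum of the class 3 ligands kept its direction over neuron-like and oligodendrocyte-like nuclei under every alternative run, but not over OPC-like nuclei. Over neuron-like nuclei the log2 ratio of 3.44 became 3.154 per nucleus, 3.047 with median-of-ratios size factors, 4.572 with no doublet removal, 3.537 at Leiden resolution 1.0, and 2.866 without the subcluster richest in Sema3a, an alternative chosen after seeing the data. With no doublet removal the interval widened from [3.378, 3.502] to [4.376, 4.774], as fewer ligand UMIs were counted in the neuron-like class. That class was thus not the same group of nuclei there. The member count with no doublet removal has the same limit. Over oligodendrocyte-like nuclei 3.86 became 5.634 per nucleus, 3.453 with size factors, 3.636 with no doublet removal and 3.285 without that subcluster. Over OPC-like nuclei, for which every alternative was chosen after seeing the data, 0.35 became 1.748 per nucleus, 0.1196 with size factors and -0.2282 without that subcluster, and ranged from 0.3071 to 0.4244 with stricter filters on nuclei, no doublet removal, Leiden resolution 1.0 and only nuclei with a vector count. Size factors shifted every gene by -0.39 over neuron-like and -0.41 over oligodendrocyte-like nuclei, and the median of all genes in CPM was 0.38 and 0.42. The count of 4 members higher than in both host classes became 3, without Gfra1, with size factors, with no doublet removal and without that subcluster, and kept those 4 genes per nucleus, with stricter filters on nuclei, at Leiden resolution 1.0, in nuclei with a vector count, with no minimum of 10 CPM and at 1.5-fold. The count of promoters higher in both, 1 (Sema3e), became 4 with counts per nucleus (Sema3a, Sema3c, Sema3e and Gfra1) and 2 with a window of 2000 bases (Sema3e and Gdnf, whose peak then counts). The number of listed pathway genes past 2-fold, 23, ranged up to 34 with no minimum of 10 CPM, with 18 higher and 16 lower in place of 10 and 13. Per nucleus and with size factors it was 27, with 9 higher and 18 lower. The causes were not tested. No paired analysis was possible because each genotype has 1 library with counts. Depth limits the OPC-like values most, with 321732 UMIs in Foxr2 p53LOF.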
